A study of Schizosaccharomyces pombe with 3 samples.

Results

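Genes of the actin cytoskeleton, of cell polarity and of cytoskeletal motors were examined for the splicing of their introns in fission yeast. The genes were chosen by symbol alone, from a fixed pattern that names actin and actin-related proteins, ring and patch proteins, myosins, dynein, microtubule tip proteins and other genes of cell polarity. The pattern took 111 of the 5374 lines of the deposited junction table, in 49 of 2546 genes. Of these junctions, 79 lay on chromosome I, 26 on chromosome II and 6 on chromosome III. In the annotation of the RefSeq assembly ASM294v3, 110 of the 111 matched the 5’ splice site (SS) of an intron: 107 introns interrupted coding sequence, 1 lay in a 5’ UTR (*rga9* I) and 2 in a 3’ UTR (*vrp1* II and III). The junction of *ent1* matched none and carries no sequence here. Introns are numbered with Roman numerals from the 5’ end of the gene, as annotated. The pattern also took symbols of other function: *sla1* encodes the La protein, which binds RNA polymerase III transcripts, and *arp42*, *arp5*, *arp6* and *arp8* encode nuclear actin-related proteins of chromatin remodelling complexes. Their 9 introns are counted with the members and described apart. A further 30 matching symbols of the reference annotation, among them *act1*, *for3*, *cdc12*, *myo2*, *dhc1*, *tea1* and all *bgs* genes, have no line in the table, and none of the 30 has an annotated intron. The symbol *dli1*, with 4 annotated introns, also matches in the reference. Its gene has a line in the table that the pattern did not take, so it is not a member.

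All cells carried *prp4-as2*, a conditional allele of the spliceosomal kinase Prp4 that can be blocked with the ATP analogue 1NM-PP1. RNA came from untreated cells and from cells after 30 min and 60 min with 1NM-PP1, with 1 library per condition. No strain with wild-type Prp4 was among the samples, so an effect of the compound that does not pass through Prp4 cannot be told apart from one that does. With 1 library each there is no replicate check and no p-value, and every difference compares these libraries. At the junction of every intron with its 5’ exon, split reads join exon to exon (spliced RNA) and unsplit reads run into the intron (unspliced RNA). The RSEI is the log2 ratio of split to unsplit reads, with 1 added to each count. It is positive where spliced RNA prevails and negative where unspliced RNA prevails. The unspliced share is the percentage of unsplit reads, given with its exact (Clopper-Pearson) 95% interval. Reads carry no molecular identifiers that would mark PCR copies, so intervals cover counting error only. A share is called higher or lower where the intervals of the libraries do not overlap. A share sets unspliced against spliced RNA, so slower splicing and a change in the decay of either form cannot be told apart.

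Fission yeast builds its actin into patches, cables and a ring. Patches at the growing cell ends are branched networks nucleated by the Arp2/3 complex and drive endocytosis, cables guide myosin-driven transport along the cell, and the contractile ring divides the cell. The GTPase Cdc42 chooses where growth occurs. Exchange factors load it with GTP and GTPase-activating proteins switch it off, while proteins at microtubule plus ends mark the cell ends. An intron is first recognized when the snRNA U1 pairs with the exon1/5’ SS region and the snRNA U2 pairs with the branch sequence.

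The sequences at the 5’ SS are shown for introns at the extremes and for pairs of introns in 1 gene whose RSEI had opposite signs at 30 min, since these pairs lie in the same pre-mRNA. Each has 10 bases of exon and 20 of intron, 5’ to 3’ on the strand of the gene, from ASM294v3, with positions -3 to +6 in capitals. Negative at 30 min were *arp3* III (chrI:351200-351294, plus strand), *acp1* I (chrI:4585325-4585370, plus), *rga4* II (chrII:1839903-1840044, plus), *end3* II (chrII:1759861-1760084, minus), *rga9* IV (chrI:4998735-4998776, plus), *rho2* IV (chrI:4423405-4423516, plus), *mal3* (chrI:2243678-2243737, plus), *rga8* (chrI:574225-574268, minus) and *arp5* (chrII:2512761-2512815, plus).
arp3 III: tattcctGTTGTATGTataaaaaatctaat
acp1 I: gtagttcATGGTTTGTtaaagtgctgaata
rga4 II: attccgaTTGGTATGAttgaaaatgcaaac
end3 II: gattaatGGGGTATGAaaccacttacttta
rga9 IV: gttatatTTGGTATTGagcattattcttct
rho2 IV: agattgtCGAGTATGTgtgattaacaagtt
mal3: gatcaacCAAGTACGCtttaatatcttagt
rga8: aatgagcAAGGTATTTaaataaattaatat
arp5: attgataATGGTATTAtaatacgaacaatt

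Positive at 30 min were the partners of these introns, *arp3* I (chrI:350512-350574, plus), *acp1* II (chrI:4585565-4585628, plus), *rga4* III (chrII:1840395-1840457, plus), *end3* I (chrII:1760162-1760231, minus), *rga9* V (chrI:4999018-4999067, plus) and *rho2* VII (chrI:4423786-4423829, plus), and the intron of the patch genes with the highest RSEI at 30 min, *arc4* III (chrI:3258749-3258929, minus).
arp3 I: taatggaCAAGTAAGTattgatgtagcgaa
acp1 II: tgaaactATGGTAAGGttaaatttttcaaa
rga4 III: tctttaaCTGGTAAGTttgttgcttatgta
end3 I: gatttagCAGGTACGGaaaacatgagtttg
rga9 V: actaaagATGGTAAGTccacatttattgaa
rho2 VII: ttctacgAAGGTTCGTttcattaattgttt
arc4 III: acctgttCAGGTACGTtattacaaattgta

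At the other end of the intron, a branch pentamer (CTNAC on the strand of the gene, where T may stand for either C and matches may overlap) was sought within the last 40 bases. The pentamer nearest the 3’ SS need not be the branch sequence in use: in *arp3* I, CTAAC lies directly before it. In *arp3* III, CTAAC overlaps the start of the marked CTGAT. The last 30 bases of a strongly retained and a well spliced intron of *rho2* and of *arp3* are shown, with the nearest pentamer in capitals.
rho2 IV, 3’ end: tgctaatacatttgataCTAACtaaaatag
rho2 VII, 3’ end: ttgttttttccagtcaTTAACattatatag
arp3 III, 3’ end: gcccgaattttactaaCTGATaaaccttag
arp3 I, 3’ end: tgaatatcagttactaacTTTATttgttag

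Depth set how firmly each intron could be placed. The 3 libraries held 910440 (untreated), 852562 (30 min) and 743457 (60 min) junction reads, and unsplit reads made up 6.92%, 30.0% and 22.8% of them. Over the member junctions unsplit reads were 4.95%, 27.4% and 18.8%. Introns with more than 10 reads in each library and a positive RSEI in untreated cells were kept: 94 of the 111, in 42 genes. Their median was 109, 121.5 and 102.5 reads, against 85, 83 and 73 over all 4171 kept introns of the table, and single values ran from 14 to 2846 reads. The other 17 had too few reads: *myo51* I and II, *myo52* I and II, *vrp1* I to III, *imp2* I and III, *arp1* I to III, *peg1* I, *gef3*, *rga9* II, *rgf1* and *rho5*. They had 0 to 28 reads per library. Genes left with no kept intron thus include the type V myosins *myo51* and *myo52*, which move cargo along actin cables, and *arp1* of dynactin, the activator of dynein.

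Nearly all introns of these genes had a lower RSEI at 30 min. It was below the untreated value in 93 of the 94 introns (97.4% of all kept introns), and the unspliced share was higher with separate intervals in 74 (background 70.3%). It was lower in none (background 0%), an interval of 0 to 3.85% over the introns. Still, most of the introns stayed more spliced than unspliced. At 30 min 26 of the 94 had a negative RSEI (27.7%, interval over introns 18.9 to 37.8), 67 a positive one and 1 an RSEI of 0. An interval over introns takes each intron as independent, although introns share genes and a library, so it is not a test of the members. Over all kept introns 37.6% were negative. The whole interval of the share lay above 50% in 17 members (background 25.4%) and below it in 54 (background 49%). The members had a median RSEI of 4.04 before inhibition, 0.82 after 30 min and 1.74 after 60 min, beside 3.58, 0.66 and 1.57 over all kept introns. In unspliced share, the medians were 4.39%, 36.1% and 21.8% for the members and 6.47%, 38.4% and 24.4% for all. The members thus started from a lower unspliced share, and their median change in RSEI at 30 min, -2.82, lay beside -2.92 for all. Scaled to all junction reads of its library, the median member intron held 0.653 of its untreated split reads at 30 min and, over the 87 introns with unsplit reads before inhibition, 5.70-fold more unsplit reads. No background over all kept introns is given for these ratios. Unsplit reads went from 6.92% to 30.0% of all junction reads, so shifts in these directions are not particular to the members.

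**Figure D1:**
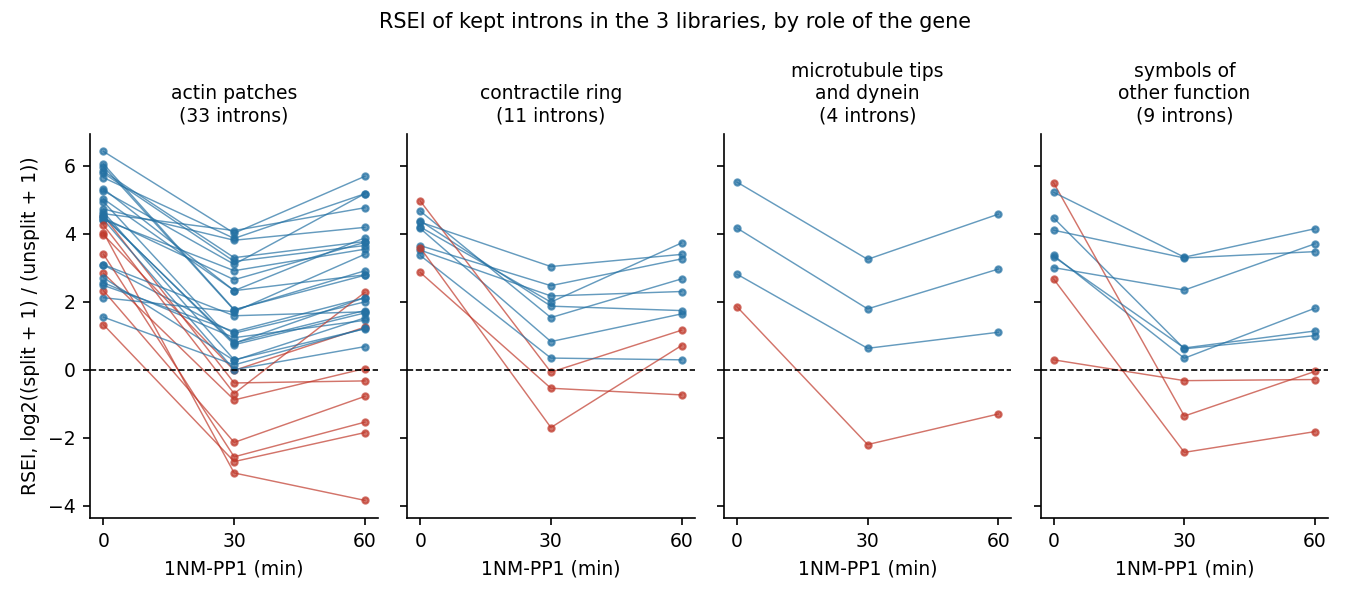
RSEI (base-2 logarithm, y axis) of 57 of the 94 kept introns, in 4 panels by role of the gene, in untreated cells and after 30 and 60 min with 1NM-PP1 (x axis); each line is 1 intron, red where the RSEI at 30 min was negative and blue otherwise. All 57 lines are lower at 30 min than in untreated cells, and 15 of them cross below the dashed line at 0, where split and unsplit reads are equal. The other kept introns are not drawn, among them *rho2* VII, the only one with a higher RSEI at 30 min.

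**Figure D2:**
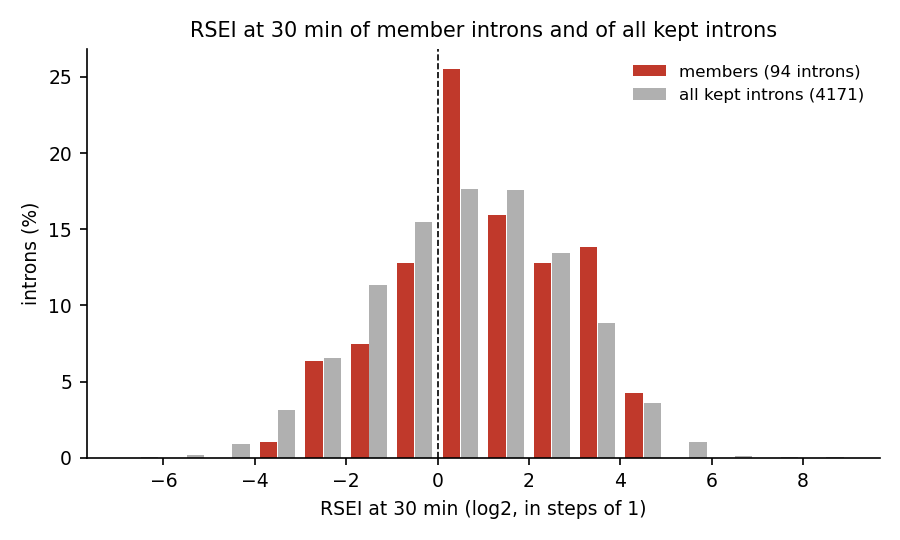
Percentage of introns (y axis) in each step of 1 of the RSEI at 30 min (x axis), for the 94 kept member introns (red) and all 4171 kept introns (grey). The step from 0 to 1 holds the most introns in both sets, 24 members and 735 of all. Members have none below -4, where 49 of the 4171 kept introns lie, a share too small for 94 members to show a difference.

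The Arp2/3 complex, which nucleates the branched actin of patches, is covered by 16 introns in 7 subunit genes, all of them kept. Their median RSEI went from 4.52 to 1.41 at 30 min and 2.45 at 60 min. The unspliced share was higher at 30 min in 15 of 16 (background 70.3%). Depth, which narrows intervals, was a median of 330.5 untreated reads here against 85 over all kept introns. Unspliced RNA came to prevail at 3 of the 16 introns (background 37.6%), in *arp3*, *arc1* and *arc3*. At *arp3* III there were 272 split and 25 unsplit reads before inhibition, 29 and 176 at 30 min, and 44 and 130 at 60 min. The unspliced share was 8.42% (5.52 to 12.2), 85.9% (80.3 to 90.3) and 74.7% (67.6 to 81.0). The other introns of *arp3* stayed below it: intron I had 89 split and 17 unsplit reads at 30 min, a share of 16.0% (9.63 to 24.4), after 158 and 3 in untreated cells. Introns II and IV of *arp3* had shares of 36.7% and 45.2% at 30 min. The interval of intron IV (33.5 to 57.3) spans 50%, so the gene had 1 mostly unspliced intron beside 2 mostly spliced ones and 1 near equality. The only intron of *arc1* had 390 split and 16 unsplit reads before inhibition, 160 and 210 at 30 min, and 143 and 180 at 60 min, and its RSEI hardly moved between 30 min (-0.39) and 60 min (-0.33). In *arc3*, intron III had 343 split and 21 unsplit reads before inhibition and 133 and 135 at 30 min, a share whose interval (44.2 to 56.5%) spans equality. Introns I and II of *arc3* had shares of 16.0% and 37.4%.

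The other Arp2/3 introns stayed mostly spliced. The last intron of *arc4* had 335 split and 13 unsplit reads before inhibition, 288 and 16 at 30 min, and 324 and 11 at 60 min, so its shares of 3.74%, 5.26% and 3.28% had overlapping intervals. It had the highest RSEI at 30 min of the patch genes, 4.09. Intron I of *arc4*, by contrast, went from 534 split and 13 unsplit reads to 521 and 60, then to 612 and 16, and its share was higher at 30 min and lower again at 60 min. In *arc5*, introns I and III started at an RSEI of 5.97 and 4.93 and stood at 1.75 and 0.79 at 30 min, while intron II went from 4.41 to 2.91. The single introns of *arp2* and *arc2* had shares of 22.5% and 32.1% at 30 min.

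Of the other patch genes, *end3*, *ent1*, *crn1* and *acp1* had introns with a negative RSEI at 30 min. Over the patch genes as a whole, Arp2/3 included, these were 8 of 33 kept introns (background 37.6%), and *crn1* I stood at 0. The largest fall in RSEI of the kept members was at intron II of *end3*, which encodes an EH domain protein of the endocytic coat. Its 48 split and 2 unsplit reads before inhibition became 4 and 40 at 30 min and 2 and 42 at 60 min. The RSEI was 4.03, -3.04 and -3.84, and the share at 60 min was 95.5% (84.5 to 99.4). Intron I of *end3* had 98 split and 3 unsplit reads before inhibition, 21 and 17 at 30 min and 22 and 9 at 60 min. At the junction of *ent1*, encoding an epsin that recruits cargo to endocytic sites, 34 split and 6 unsplit reads became 14 and 65, then 17 and 30. In *crn1*, encoding coronin, intron II had 14 split and 5 unsplit reads before inhibition, 7 and 51 at 30 min, and 9 and 35 at 60 min, a share of 87.9% at 30 min whose interval begins at 76.7%. Intron I of *crn1* stood at 32 split and 32 unsplit reads at 30 min. Intron IV had 37 and 1, then 15 and 25, then 28 and 5. Intron III, with 12 and 2, 12 and 3, and 20 and 1, had too few reads to separate its shares.

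The actin capping protein, which stops filament growth at the barbed end, has a subunit encoded by each of *acp1* and *acp2*. At *acp1* I, 56 split and 7 unsplit reads before inhibition became 26 and 49 at 30 min and 42 and 41 at 60 min. At *acp1* II, on the same transcript, 340 and 3 became 370 and 22, then 410 and 7. The RSEI at 30 min was -0.89 for the first and 4.01 for the second. Both introns of *acp2* were positive, 3.29 and 0.94. Both introns of *adf1*, encoding the filament-severing protein cofilin, also stayed well spliced. They were the deepest of the members: intron II had 2796 split and 50 unsplit reads, then 1815 and 199, then 1692 and 134, so that a share of 9.88% (8.61 to 11.3) at 30 min was separate from 1.76% (1.31 to 2.31) in untreated cells. The 3 introns of *wsp1*, the WASP homologue that activates Arp2/3, had RSEI values of 1.58, 1.12 and 0.14 at 30 min. At the intron of *myo1*, the type I myosin of patches, unsplit reads were 0 of 49 in untreated cells, which allows a share of up to 6.12%, 1 of 29 at 30 min and 0 of 35 at 60 min, which allows up to 8.57%.

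Genes of the contractile ring had 11 kept introns. Of these, 3 were negative at 30 min (background 37.6%) and 10 had a higher share (background 70.3%). Their median depth was 196 untreated reads, against 85 over all kept introns. Essential light chain of type II myosin is encoded by *cdc4*, whose 4 introns all had a higher share at 30 min and a lower one at 60 min than at 30 min. Intron IV had 310 split and 9 unsplit reads before inhibition, 193 and 203 at 30 min, and 180 and 80 at 60 min. Its RSEI of -0.07 at 30 min lay just below 0, and the interval of the share, 46.2 to 56.3%, spans equality. Introns I to III of *cdc4* had shares of 25.6%, 36.0% and 19.7%. In *cdc3*, encoding profilin, intron I had 173 split and 23 unsplit reads before inhibition, 99 and 145 at 30 min and 66 and 111 at 60 min, and intron II had 82 and 3, 61 and 16, and 49 and 14. Neither intron had a lower share at 60 min than at 30 min. The F-BAR protein gene *imp2* had 1 kept intron of 3. Intron II went from 23 split and 1 unsplit reads to 3 and 12, then to 17 and 10, with RSEI values of 3.58, -1.70 and 0.71. These counts are small, and the share at 30 min, 80.0%, had an interval of 51.9 to 95.7%. Tropomyosin, which coats and stabilizes actin filaments, is encoded by *cdc8*. Its intron stayed mostly spliced, with 588 split and 46 unsplit reads before inhibition, 636 and 114 at 30 min, and 553 and 57 at 60 min. The introns of *fim1*, encoding the crosslinker fimbrin, were also mostly spliced. Intron II of *fim1*, the highest of this group at 30 min (RSEI 3.03), had shares of 4.23%, 10.5% and 8.29%. The intron of *fic1*, encoding a C2 domain protein of the ring, had 18 split and 14 unsplit reads at 30 min.

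Of the genes that act on GTPases, the *rga* genes for GTPase-activating proteins had 4 negative introns of 11 at 30 min and the exchange factor genes 4 of 7, beside 37.6% of all kept introns. These counts are small, and the sets also differ in untreated cells, where the median unspliced share was 3.85% for the *rga* genes and 9.35% for the exchange factors. Introns of *cdc42* stayed mostly spliced: intron I had 250 split and 5 unsplit reads before inhibition, 154 and 31 at 30 min, and 187 and 9 at 60 min, and intron II, the longest of the kept members at 430 nt, had 253 and 16, 104 and 69, and 139 and 54. The 331 nt intron of *rho1*, encoding the GTPase that regulates glucan synthesis, had 492 split and 15 unsplit reads, then 676 and 71, then 635 and 26. At *rho3* II, unsplit reads were 0 of 92 in untreated cells, which allows a share of up to 3.26%, and 47 of 121 at 30 min. The intron nevertheless kept a positive RSEI, 0.64. In *rho4*, intron II stood near equality at 30 min (111 split and 118 unsplit reads, against 199 and 31 in untreated cells), and introns III, IV and V had shares of 15.6%, 12.4% and 8.90%.

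The gene with the widest range was *rho2*, whose 8 introns, all kept, ran from -1.94 to 4.78 in RSEI at 30 min. At *rho2* IV, 84 split and 19 unsplit reads before inhibition became 24 and 95, then 37 and 118. At *rho2* VII, 25 and 1 became 54 and 1, then 49 and 9. This was the only kept member whose RSEI was higher at 30 min (4.78) than in untreated cells (3.70), and it was lower at 60 min (2.32), but the 3 shares of 3.85% (0.0973 to 19.6), 1.82% (0.0460 to 9.72) and 15.5% (7.35 to 27.4) overlap. Intron VI was the other negative one, with 17 split and 22 unsplit reads at 30 min after 28 and 7. Intron II had 0 unsplit reads of 43 in untreated cells, which allows up to 6.98%, and 18 of 40 at 30 min. Introns I, III, V and VIII had RSEI values of 0.72, 0.64, 1.12 and 0.98.

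Among the GTPase-activating proteins, *rga9* had 7 kept introns of 8, and they differed from each other at both times. At *rga9* IV, 79 split and 2 unsplit reads became 19 and 42 at 30 min and 51 and 19 at 60 min, and the share at 60 min was lower than at 30 min. At *rga9* VI, 32 and 9 became 11 and 45, then 12 and 46. At *rga9* V, unsplit reads were 0 of 47, 7 of 28 and 0 of 23, where the zeros allow up to 6.38% and 13.0%. Intron III went from 35 and 3 to 16 and 12, then to 8 and 14. Intron I, in the 5’ UTR, had 86 split reads and 1 unsplit read, then 109 and 38, then 98 and 10. So neighbouring introns of this transcript included 1 near its untreated share at 60 min (V) and 1 with most of its RNA unspliced at both times (VI). The 3 introns of *rga4* were as different. Intron II had 86 split and 8 unsplit reads, then 21 and 34, then 28 and 22, whereas intron III had 51 and 0, 72 and 3, and 57 and 2. The single intron of *rga8* had an RSEI of -2.01 at 30 min, with 64 split and 9 unsplit reads, then 26 and 108, then 21 and 56.

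Both exchange factors for Cdc42 had an intron with a negative RSEI at 30 min. The intron of *gef1* had 484 split and 57 unsplit reads before inhibition, 125 and 268 at 30 min, and 135 and 199 at 60 min, and that of *scd1* had 35 and 5, 22 and 27, and 31 and 19. The interval of the share at 30 min lay wholly above 50% for *gef1* (63.3 to 72.8) and not for *scd1* (40.2 to 69.3). The scaffold of this module, *scd2*, had 411 split and 5 unsplit reads, then 340 and 24, then 355 and 29. In *gef2*, intron I was negative with 6 split and 19 unsplit reads at 30 min after 15 and 5, and introns II and III were positive with 57 and 9 and with 173 and 135. In *rgf2*, encoding an exchange factor for Rho1, intron I had 61 and 0, then 33 and 3, and intron II had 14 and 1, then 15 and 25.

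At microtubule plus ends, the single intron of *mal3*, the EB1 homologue that tracks growing ends, was among the most retained. It had 302 split and 83 unsplit reads before inhibition, 61 and 284 at 30 min, and 74 and 184 at 60 min. Its share was 21.6% (17.6 to 26.0) without inhibitor, 82.3% (77.9 to 86.2) at 30 min and 71.3% (65.4 to 76.8) at 60 min, with separate intervals at each step. The CLASP gene *peg1*, whose product stabilizes microtubules, had 13 split reads and 1 unsplit read at intron II, then 16 and 10, then 14 and 6, and these shares overlap. Both introns of *dlc1*, encoding a dynein light chain, remained mostly spliced: intron I had 196 split and 10 unsplit reads, then 206 and 59, then 162 and 20, and intron II had 273 and 5, 302 and 31, and 284 and 11.

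Among the symbols of other function, 3 of 9 introns were negative at 30 min (background 37.6%). The intron of *arp5* had 94 split and 14 unsplit reads, then 17 and 96, then 16 and 59. In *arp8*, intron I had 89 split reads and 1 unsplit read, then 27 and 71, then 27 and 28, while introns II and III had RSEI values of 2.34 and 3.28 at 30 min with shares that overlap those of untreated cells. In *arp6*, intron I had 10 split and 8 unsplit reads before inhibition and 7 and 9 at 30 min, and intron II had 21 and 0, then 25 and 16. The intron of *sla1* was the highest of this group, with 370 and 9, 355 and 35, and 423 and 23.

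**Figure D3:**
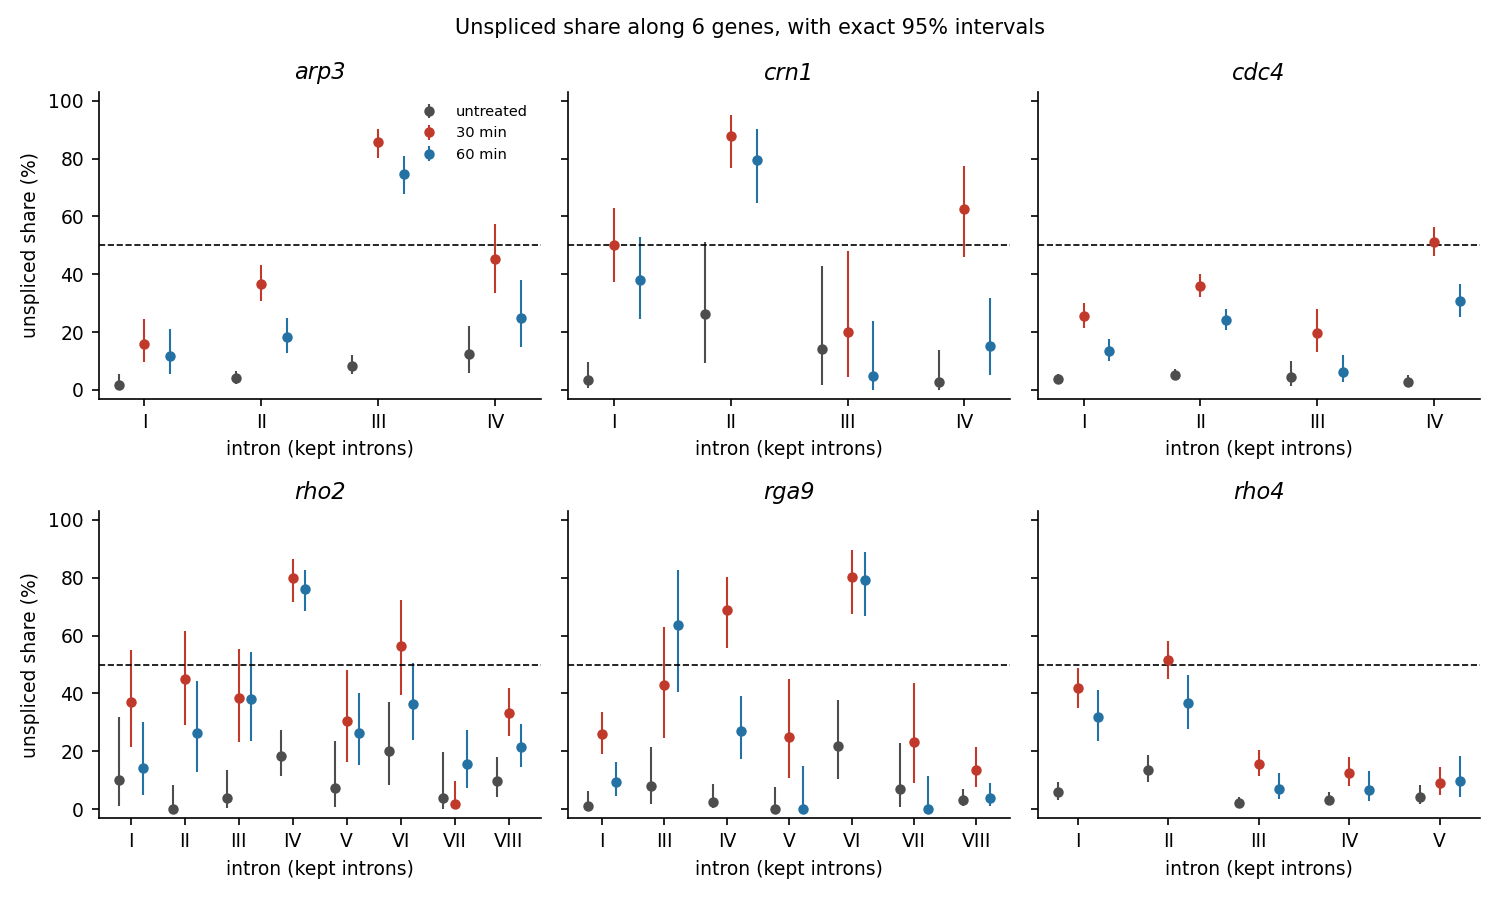
Unspliced share in percent (y axis) at each kept intron, in order along the gene (x axis), for *arp3*, *crn1*, *cdc4*, *rho2*, *rga9* and *rho4*, in untreated cells (grey), at 30 min (red) and at 60 min (blue); points are shares of reads and bars exact 95% intervals. At 30 min *arp3* III (85.9%) stands above the dashed line at 50% with its whole interval and *arp3* I (16.0%) below it, as do *rho2* IV (79.8%) and *rho2* VII (1.82%).

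Introns of opposite sign in 1 gene were common. Of the 24 genes with several kept introns, 15 had introns of both signs at 30 min (46.7% of 1098 such genes in the table). Only positive introns were found in 9 genes (35.6%) and only negative ones in 0 (16.4%). The interval over genes for the last count, 0 to 14.2%, takes genes as independent and is not a test. The 15 were *rho2*, *acp1*, *arp3*, *rga4*, *arp8*, *rga9*, *crn1*, *gef2*, *rgf2*, *rho4*, *end3*, *cdc3*, *arc3*, *cdc4* and *arp6*, in order of the range of RSEI within the gene, from 6.72 down to 0.93. In 8 of the 24 genes the difference in sign was beyond counting error, with the interval of the share wholly above 50% at 1 intron and wholly below it at another (background 28.1%). In the other 7 of the 15, *rga4*, *rgf2*, *rho4*, *end3*, *arc3*, *cdc4* and *arp6*, every intron of one of the signs had an interval that spanned 50%. Of the 18 genes with 1 kept intron, 8 were negative (background 36.3%). A second list of cytoskeletal genes, not taken by the symbol pattern (septins, kinesins, formin and ring proteins), had 18 negative introns of 43 at 30 min (background 37.6%). Their median RSEI at 30 min was 1.32, beside 0.66 over all kept introns.

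After 60 min most members had a higher RSEI than after 30 min, 83 of 94 introns (background 85.9%), and the share was lower with separate intervals in 22 (background 17.6%) and higher in 0 (background 0.24%). Of these 22, 8 lay among the 16 introns of Arp2/3 subunits and 5 among the 11 of ring genes, *cdc4* I to IV and *cdc8*. These introns are deep, with a median of 330.5 and 196 reads in untreated cells against 109 over the members, and depth narrows the intervals. Their median rise in RSEI from 30 to 60 min was 1.01 and 0.79, beside 0.78 over all kept introns. Negative values numbered 17 at 60 min (background 24.2%). Of the 26 introns negative at 30 min, 11 were positive at 60 min (background 35.3% of the introns negative at 30 min): *acp1* I, *arc3* III, *crn1* IV, *cdc4* IV, *imp2* II, *rga4* II, *rga9* IV, *rgf2* II, *rho2* VI, *rho4* II and *scd1*. The change of share was separate in 4 of the 11. The other 15 stayed negative, and 3 of these, *end3* II, *cdc3* I and *gef2* I, had a lower RSEI at 60 min than at 30 min. The opposite course, positive at 30 min and negative at 60 min, was seen at *rga4* I and *rga9* III alone (background 0.623%), with overlapping intervals at both. Largest in RSEI were the rises of *rga9* VII (from 1.58 to 4.95), *rga9* V (1.46 to 4.58), *crn1* IV (-0.70 to 2.27), *rga9* IV (-1.10 to 1.38) and *imp2* II (-1.70 to 0.71), of which *crn1* IV and *rga9* IV had separate shares. In 47 of 94 introns the shares had not met again: these still had a higher share at 60 min than in untreated cells (background 51.6%).

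For most of these genes the number of junction reads changed by less than 2-fold. Split and unsplit reads were summed over the junctions of a gene and scaled to the total junction reads of the library, for 44 member genes with more than 10 reads in each library. These sums follow spliced and unspliced RNA at introns only, and are not a measure of the whole transcript. The median ratio to untreated cells was 1.06 at 30 min and 1.13 at 60 min, beside 1.10 and 1.09 over all 2202 genes. At 30 min 1 member was up 2-fold or more (background 6.86%) and 0 were down 2-fold or more (background 5.99%), so that 1 of 44 changed in either direction (background 12.9%). That gene was *ent1*, with 40 reads in untreated cells and 79 at 30 min, a ratio of 2.11, followed by *rga8* (73 and 134 reads, 1.96) and *peg1* (17 and 31 reads, 1.95). The lowest ratios were those of *arc5* (2352 and 1159 reads, 0.526), *imp2* (60 and 32, 0.570) and *end3* (151 and 82, 0.580). At 60 min 1 gene, *peg1*, was up 2-fold or more (30 reads, ratio 2.16, background 4.45%) and 0 were down (background 5.77%), again 1 of 44 in either direction (background 10.2%). In *arc5*, the deepest of the 3 genes with the lowest ratios, the sum at 60 min was 1488 reads, a ratio of 0.775. The count of changed genes depended on the scaling: relative to split reads alone, 6 genes were up 2-fold or more at 30 min. With median-ratio size factors 0 were up, *ent1* included, and *arc5* was down 2-fold, and with more than 50 reads required *ent1* was not tested.

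**Figure D4:**
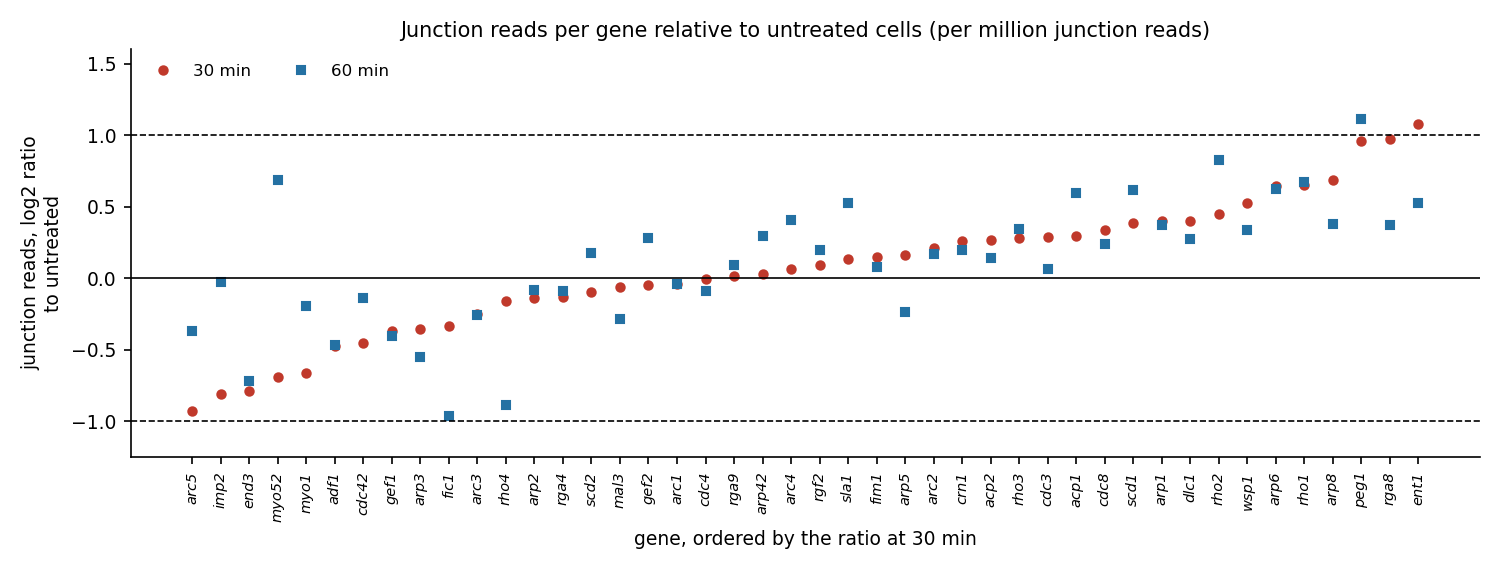
Junction reads per gene relative to untreated cells, as a base-2 logarithm of the ratio after scaling to the library’s junction reads (y axis), for the 44 member genes in order of the ratio at 30 min (x axis), at 30 min (red circles) and 60 min (blue squares), 1 library each. All genes but *ent1* at 30 min and *peg1* at 60 min lie between the dashed lines that mark a 2-fold change.

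On average, introns with a negative RSEI at 30 min had exon1/5’ SS regions that match fewer of the bases complementary to snRNA U1. Bases at positions -3 to +6 were counted as able to pair where they matched CAGGTAAGT, 9 in all. Wobble pairs were not counted, nor were other bases at +4, which per the paper can also pair with the pseudouridine of U1. Among members the mean was 5.56 ± 0.82 pairs (SD, n = 25 introns) where the RSEI at 30 min was negative and 6.43 ± 0.80 (n = 67) where it was positive, beside 5.88 ± 0.92 (n = 1565) and 6.42 ± 0.91 (n = 2553) over all kept introns. Negative were 2 of 4 members with 4 pairs, 10 of 15 with 5, 10 of 40 with 6, 3 of 29 with 7 and 0 of 5 with 8. No member had all 9, which 0.722% of all kept introns have. The introns printed above show this: *rga4* III has 8 of the bases and *rga4* II 5, *end3* I has 7 and *end3* II 5, and *arp3* I has 8 and *arp3* III 5. There were exceptions in both directions. *rho2* IV and *rho2* VII have 6 each, at the opposite ends of the range within that gene, and *mal3* and *rga8*, both strongly retained, have 6. Within the 15 genes of both signs, the negative introns had a lower mean number of pairs than the positive ones in 11, the same in 2 (*arc3* and *arp6*) and a higher one in 2 (*crn1* and *gef2*). These introns share genes and are not independent of each other.

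**Figure D5:**
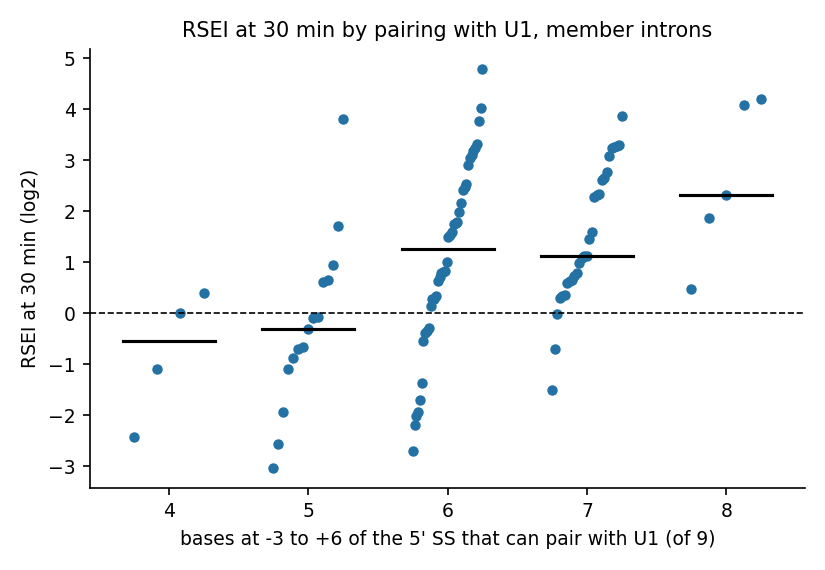
RSEI at 30 min (base-2 logarithm, y axis) of the 93 kept member introns with a sequence, by the number of bases at positions -3 to +6 that can pair with snRNA U1 (x axis); points are introns, spread sideways for view, and bars are medians. The medians are -0.55, -0.32, 1.25, 1.12 and 2.32 for 4 to 8 pairs, and the ranges overlap widely.

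By position, members with the matching base at +4 were negative in 5 of 38 cases and the others in 20 of 55, beside 34.5% and 40.7% over all kept introns. At +3 the counts were 18 of 83 and 7 of 10, beside 36.7% and 51.9%, and at -1 they were 17 of 63 and 8 of 30, beside 31.6% and 45.9%. At +5 they were 19 of 77 and 6 of 16, beside 35.1% and 58.7%, the widest gap of these positions over all kept introns. At +6 they were 13 of 62 and 12 of 31, beside 33.1% and 46.6%, and at -2 they were 10 of 44 and 15 of 49, beside 35.1% and 40%. Only at -3 and -1 was the negative share of members no lower with a base that can pair: at -3 it was 7 of 21 against 18 of 72, beside 37.7% and 37.6%. A branch pentamer was found in all 93 introns with a sequence (99.1% of all kept introns). Introns with CTAAC nearest the 3’ SS were negative in 10 of 28 cases and those with CTAAT in 5 of 22, beside 32.7% and 39.2% over all. Short introns of up to 50 nt were negative in 11 of 29 cases (41.8% of all such introns) and those of 100 nt or more in 3 of 18 (32.0%). The unspliced share before inhibition went with the sign as well: 7 of 51 members with an untreated share of up to 5% were negative at 30 min and 18 of 42 with a higher one, beside 14.7% and 53.5% over all kept introns. The RSEI at 30 min includes that starting level. The median change in RSEI from untreated cells was -2.70 in the first group of members and -2.83 in the second.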

How the data were processed

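Per the labels and the study’s methods, the authors aligned reads from *prp4-as2* cells with TopHat to the Ensembl annotation ASM294 (SAMtools is also named in the submitters’ notes), kept uniquely mapped reads and deposited counts of split and unsplit reads in a window of 3 bases at the junction of each intron with its 5’ exon, without normalization. The deposited log2 values are the RSEI, and in all 5368 distinct junctions they equal the log2 ratio with 1 added to both counts, within 1e-09. 6 lines repeat a junction and were dropped. Intron ends and bases were read from RefSeq (ASM294v3), a later release than the one the authors used: 5187 junctions lay at an annotated 5’ SS of an intron of at least 20 nt, and coordinates (1-based) are those of ASM294v3. A share of 0 was given the upper limit that 3 counts allow. Branch pentamers were sought in the last 40 nt.

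The members and gene lists, the role groups and the alternatives were chosen with earlier results of these data known; the role of *end3* was entered after the files had been read. Named are the introns with the lowest and highest RSEI at 30 min of each role group, the 8 largest and 5 smallest falls, the 5 largest rises from 30 to 60 min, the genes of both signs, all members not kept, and the 3 highest and lowest ratios of junction reads. Others were named after their values were seen. The totals of 1 role group are not reported here. Alternatives changed the read filter, the untreated RSEI, the pseudocount, the members, the summary per gene, the interval, the scaling of gene reads and the pairing rule. Code was tested on simulated data. Python 3.11.15, numpy 2.4.6, pandas 2.3.3 and scipy 1.17.1 were used.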

Additional observations from a re-analysis of the deposited data

How the results depend on the processing

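No paired analysis was possible because each condition had 1 library. The 9 results were recomputed under 57 alternatives. Of these, 53 stayed within 1.5 times the reported count or within the error of the reported median or mean, and 4 did not. A reversal of sign could be scored only for the medians and the difference in mean pairs, where 0 were seen. The counts could not reverse by this rule. The 53 include those that allowed any RSEI in untreated cells. These could change nothing, since 0 members had been left out by that rule. With 1 value per gene, the median RSEI was negative for 10 of 42 genes at 30 min and for 7 at 60 min, counts of genes in place of introns. Scaling by split reads alone put 6 genes past a 2-fold change at 30 min, all upward (*arp6*, *arp8*, *ent1*, *peg1*, *rga8* and *rho1*), and moved the median log2 ratio of all genes from 0.14 to 0.55. With more than 50 reads required per gene, 0 of 34 genes changed 2-fold, since *ent1* was no longer tested. A median-ratio size factor also gave 1 gene and so is among the 53, but the gene was a different one: *arc5*, downward. Leaving out *rho2* and *rga9*, the genes with the most kept introns, was chosen after seeing the data and left 22 of 79 introns negative at 30 min. Depth limits single introns: with more than 30 reads in each library, 75 members remained and 21 were negative at 30 min.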
